A study of Mus musculus with 6 samples.

Results

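ChIP-Seq with an anti-FLAG antibody mapped where Onecut3 sat on the genome of MEFs, and the regions described here are those that recurred in every replicate and lay at a protein-coding gene end. MEFs are fibroblasts grown from mouse embryos, here primary cells of strain C57BL/6 that share 1 genetic background in all groups, and the cell type cannot be checked in peak lists, which hold no expression. In the Onecut3-OE group (3 FLAG replicates), 100 ng/mL doxycycline switched on FLAG-tagged ONECUT3 from a retroviral Tet-One system. The other libraries of the series were Onecut3-OE IgG, Onecut3-OE input and Control FLAG, the last without doxycycline (1 library each). Those were not analysed here, so signal that the antibody gives without Onecut3 has not been taken off beyond the authors' own peak calling.

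Peaks of the 3 lists were joined into regions wherever they overlapped (1 bp was enough). A region was kept when each list had a peak in it, it lay on chromosomes 1 to 19 or X, and no more than 3 kb separated its midpoint from the start or the end of a protein-coding gene, as RefSeq spans of GRCm38 place them. The lists held 31600, 12856 and 24822 peaks in replicates 1, 2 and 3, which merged into 50844 regions. All 3 lists shared 5114 regions, 5099 of them on the chromosomes used, and 928 of these (18.2%, the share set by the rule itself) were at a gene end. They are called shared gene-end regions below, and they touched 1126 of 21631 protein-coding genes (5.21%). Members were thus selected on measured values, the presence of a peak in every replicate, and on position, so counts and folds are given as descriptions without a test. The 3 replicates may be technical, since no source says they came from separate cultures. Depth is unknown, as the lists give no read totals. The series has 1 input library and the peaks carry its name, so the 3 lists may share it as background. What that library adds to recurrence was not tested.

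Onecut3 belongs to the ONECUT family of transcription factors, which bind DNA through a single cut domain and a homeodomain. Related family members are best known for their work in liver, pancreas and neuronal development. Cut domains favour short words built around ATTGAT or ATCGAT, and a gene's promoter lies around its transcription start, so gene ends were divided into starts and downstream ends wherever the strand was known.

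Only 282 of the 928 regions overlapped a RefSeq promoter window. Strong regions without one, such as the stronger at Meis1 and that at Pdk2, have no sequence here. The promoters under the strongest of these 282 are shown first, because the words that the factor family recognises stand out in most of them. Each is a RefSeq sequence of GRCm38.p6 read 5′ to 3′ along the gene, from 250 bases before a transcript start to the first 30 bases of the transcript, and capitals mark ATCGAT, or the word ATTGAT, which reads as ATCAAT where it lies on the other strand. The windows are chr14:55092019-55092298 (minus strand) for Zfhx2, chr7:128744620-128744899 (plus) for Sec23ip, chr19:6067821-6068100 (minus) for Tm7sf2, chr2:25224673-25224952 (minus) for Tubb4b, chr8:83955444-83955723 (plus) for Asf1b, chr11:17211560-17211839 (minus) for Pno1, chr5:124598499-124598778 (plus) for Tctn2 and chr12:31950216-31950495 (minus) for Hbp1.
Zfhx2: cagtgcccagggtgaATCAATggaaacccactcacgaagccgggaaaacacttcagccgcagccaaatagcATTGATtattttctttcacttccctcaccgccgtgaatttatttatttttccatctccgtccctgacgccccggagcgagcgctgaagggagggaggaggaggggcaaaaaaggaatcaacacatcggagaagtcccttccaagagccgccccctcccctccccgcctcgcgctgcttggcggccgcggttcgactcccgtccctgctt
Sec23ip: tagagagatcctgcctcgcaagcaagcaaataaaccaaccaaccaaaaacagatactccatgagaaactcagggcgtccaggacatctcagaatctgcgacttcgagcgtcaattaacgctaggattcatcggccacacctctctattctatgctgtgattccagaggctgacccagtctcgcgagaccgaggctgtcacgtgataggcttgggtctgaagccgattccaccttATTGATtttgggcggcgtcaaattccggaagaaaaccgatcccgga
Tm7sf2: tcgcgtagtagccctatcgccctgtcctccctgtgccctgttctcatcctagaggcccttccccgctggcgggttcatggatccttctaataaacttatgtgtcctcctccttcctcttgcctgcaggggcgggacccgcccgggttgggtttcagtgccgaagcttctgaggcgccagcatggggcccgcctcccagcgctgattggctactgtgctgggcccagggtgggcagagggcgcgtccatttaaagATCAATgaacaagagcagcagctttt
Tubb4b: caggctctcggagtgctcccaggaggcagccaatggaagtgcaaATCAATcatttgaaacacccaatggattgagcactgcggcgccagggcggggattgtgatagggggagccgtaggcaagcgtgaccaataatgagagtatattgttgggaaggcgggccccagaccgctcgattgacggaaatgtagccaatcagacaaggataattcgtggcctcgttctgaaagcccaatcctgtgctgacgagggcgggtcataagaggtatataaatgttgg
Asf1b: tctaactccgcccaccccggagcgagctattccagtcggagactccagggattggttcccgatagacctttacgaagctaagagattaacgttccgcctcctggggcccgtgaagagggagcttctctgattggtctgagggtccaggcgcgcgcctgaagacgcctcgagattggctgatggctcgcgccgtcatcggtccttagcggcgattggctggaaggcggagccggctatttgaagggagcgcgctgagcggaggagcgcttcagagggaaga
Pno1: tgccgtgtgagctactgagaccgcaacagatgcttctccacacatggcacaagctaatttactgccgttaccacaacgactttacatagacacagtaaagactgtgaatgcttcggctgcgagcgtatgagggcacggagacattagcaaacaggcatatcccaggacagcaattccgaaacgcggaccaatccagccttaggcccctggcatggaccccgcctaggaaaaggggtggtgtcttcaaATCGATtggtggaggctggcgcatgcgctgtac
Tctn2: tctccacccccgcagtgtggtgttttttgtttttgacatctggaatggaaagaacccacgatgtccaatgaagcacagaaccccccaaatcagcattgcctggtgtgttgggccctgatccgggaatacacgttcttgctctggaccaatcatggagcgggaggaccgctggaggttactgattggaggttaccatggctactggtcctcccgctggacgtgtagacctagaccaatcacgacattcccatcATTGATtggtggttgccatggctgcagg
Hbp1: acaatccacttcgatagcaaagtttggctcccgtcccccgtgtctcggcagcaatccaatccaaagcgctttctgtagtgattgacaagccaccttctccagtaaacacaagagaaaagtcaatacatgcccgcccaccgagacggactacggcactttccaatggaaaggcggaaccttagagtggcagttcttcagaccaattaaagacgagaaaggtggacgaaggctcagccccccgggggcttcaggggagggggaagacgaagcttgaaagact

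In these 8 promoters, 6 held a match and those of Asf1b and Hbp1 held none. Matches lay close to the mean summit of the 3 replicates, the base where the ChIP signal peaked, at 7.17 bp in Sec23ip, 14.5 bp in Pno1, 24.2 bp in Tctn2, 24.5 bp in Tm7sf2 and 25.5 bp in Tubb4b. In Zfhx2 the nearer of 2 matches was 114 bp from the mean summit, which lay 347 bp before the transcript start and so outside the sequence shown, because the transcript start used by RefSeq there lies inside the gene span. The mean summit at Asf1b also fell outside it, 454 bp before the start. At Hbp1 the mean summit was inside the window, 133 bp before the start, and neither word was there.

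The words were then counted in the RefSeq promoter windows of the protein-coding genes (300 bases each, 50 of them after the start). These windows belong to 17251 genes, fewer than the 21631 used for gene ends, so genes without a window are left out. Of 21020 such windows, 324 windows of 304 genes were overlapped by 282 of the shared gene-end regions. ATTGAT, read on both strands, was in 26.5% of the 324 windows (86 windows, 95% Wilson interval 22% to 31.6%) and in 6.48% of all windows. ATCGAT, which reads the same on both strands, was in 10.8% (35 windows, 7.87% to 14.7%) and in 0.866% of all windows. No window under a shared gene-end region held both words, so one or the other was in 37.3% of them (121 windows, 32.3% to 42.7%), against 7.29% of all windows. This share followed recurrence: it was 25.4% in windows overlapped by a region found in exactly 2 lists (72 of 283), 15.1% where the region was in 1 list only (82 of 543), and 6.29% where there was no region (1249 of 19847). Some windows repeat a promoter, for other transcripts of a gene or for paired genes, and 108 regions lay over the 121 windows with a word. Intervals here cover counting error only and treat windows as independent, which they are not.

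**Figure D1:**
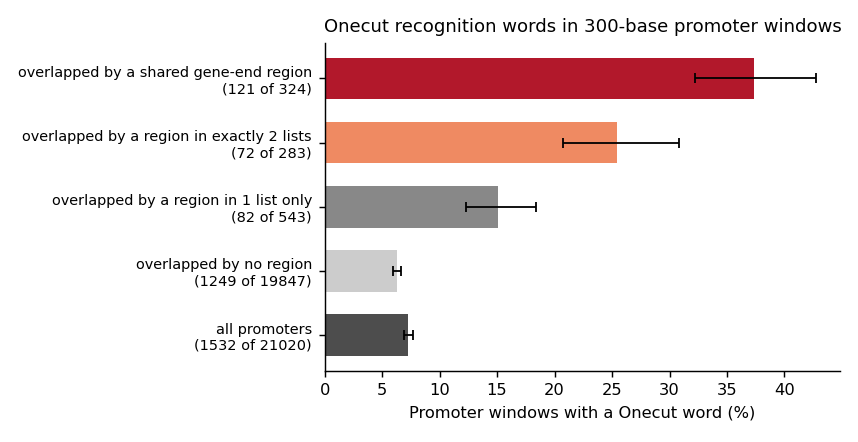
Share of 300-base RefSeq promoter windows (x axis, %) that hold ATTGAT or ATCGAT on either strand, for windows grouped by the region that overlaps them (rows, with counts), and error bars giving 95% Wilson intervals. The share was 37.3% under shared gene-end regions, 25.4% under regions of exactly 2 lists, 15.1% under regions of 1 list, 6.29% under none and 7.29% in all windows.

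Other promoter words were searched in the same way on both strands. CCAAT, the box bound by NF-Y, was in 64.8% of the 324 windows and in 38.5% of all windows, and GGGCGG, the GC box, was in 69.1% of the 324 and 46.6% of all. The ETS word CCGGAAG was in 19.8% of the 324 and 11.7% of all, and the cAMP response word TGACGTC was in 4.63% of the 324 and 3.88% of all. TATAAA was in 5.86% of windows under shared gene-end regions and in 12.7% of all windows. The AP-1 word TGACTCA was in 3.4% of the 324 and 4.69% of all, and the TEAD word GGAATG was in 10.8% of the 324 and 13.5% of all, so neither stood higher here than in promoters at large. The 324 windows were richer in G and C, with a median of 59.3% against 56.7% in all windows. In windows of at most 50% G and C, ATTGAT or ATCGAT was in 65.9% (27 of 41) under shared gene-end regions and in 15.5% of all windows (966 of 6238). Above 50%, it was in 33.2% under shared gene-end regions (94 of 283) and in 3.83% of all windows (566 of 14782). When all 2080 six-letter words, each counted with its reverse complement, were put in order of the ratio of these shares, ATCGAT came first at 12.5 and ATTGAT eighth at 4.10. This ordering was chosen after the shares of the listed words had been seen. ATCGAC (8.73) and AATCGA (7.25), which share letters with ATCGAT, came next after it.

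The words also lay near the summits, counted again by window, so repeated promoters count more than once. Where the mean summit was inside the window, the nearest ATTGAT was a median of 14.7 bp from it and within 50 bp in 63 of 74 windows (85.1%), and the nearest ATCGAT was a median of 15.8 bp from it and within 50 bp in 32 of 35 (91.4%). CCAAT was a median of 32.0 bp away (106 of 156 within 50 bp, 67.9%), and GGGCGG was 43.8 bp away (84 of 155, 54.2%). Named genes with a word beside the summit were Snx29 (ATTGAT, 2.5 bp from it), Mcm7 (ATTGAT, 1.83 bp), Klhdc10 (ATCGAT, 3.83 bp), Zfp277 (ATCGAT, 6.17 bp), Yars (ATCGAT, 8.50 bp) and the histone gene H2ac21 (ATCGAT, 9.50 bp). Regions over a promoter window with either word had median folds of 5.25, 5.56 and 5.05 in replicates 1, 2 and 3 (108 regions). Those over a window with neither had 4.28, 4.29 and 4.34 (174 regions). The fold is the ratio of ChIP pileup to local background at the summit, each with 1 added, as the peak caller wrote it.

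The strongest shared gene-end regions, ordered by the mean rank of their fold over the 3 lists, lay at genes of many kinds. First came chr14:55091755-55092624, with folds of 12.6, 15.4 and 12.8 in replicates 1, 2 and 3, whose midpoint was 192 bp inside the start of Zfhx2, a zinc finger homeobox factor, and 2595 bp from the start of Thtpa, a thiamine triphosphatase. It was 2nd among all 5099 shared regions. The next, chr11:19020252-19021052, lay 1000.5 bp before the start of Meis1, a TALE homeobox partner of Hox proteins, with folds of 12.7, 12.2 and 13.4. These were 2 of the highest folds among the 928, whose values ran from 1.87 to 12.7 in replicate 1, from 1.82 to 15.4 in replicate 2 and from 1.99 to 13.4 in replicate 3. Sec23ip, whose product sits at endoplasmic reticulum exit sites, had a region 8.0 bp from its start (chr7:128744677-128745064) with folds of 11.2, 11.4 and 11.5. The region between Pdk2 and Itga3 (chr11:95042264-95042592) had 11.8, 9.74 and 12.1. It was 1056.5 bp before the start of Pdk2, a kinase of pyruvate dehydrogenase, and 2047.5 bp past the end of Itga3, an integrin subunit. The values at Zfhx2 and Meis1 overlapped, as did those at Sec23ip and Pdk2, so the order within each of these pairs is loose.

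Several of the next regions lay at genes for the cytoskeleton, chromatin and ribosome assembly. The region at Vps51 and Tm7sf2 (chr19:6067557-6068110), a vesicle tethering subunit and a sterol reductase, had folds of 9.92, 11.4 and 10.8, and its midpoint was 9.0 and 17.0 bp from their ends. Tubb4b, a beta-tubulin, had 11.8, 10.3 and 10.5 at chr2:25224645-25225091, 165.5 bp before its start and 2586.5 bp from the end of Fam166a. Asf1b, a chaperone of histones H3 and H4, had 11.6, 9.80 and 9.98 at chr8:83955068-83955535, 393 bp before its start. Each of these was above 9-fold in all 3 replicates. Bcl7a, a SWI/SNF subunit, had 9.19, 11.7 and 9.66 at chr5:123345899-123346279. The region at the paired starts of Pno1 and Wdr92 (chr11:17211275-17211791) had 9.66, 10.9 and 9.12, and Pno1 acts in assembly of the small ribosomal subunit. The region at Tctn2 and Gtf2h3 (chr5:124598489-124598932) had the widest spread among these, 8.18, 10.0 and 12.1, 39 bp before the start of Tctn2, a ciliary transition zone protein, and 1030 bp past the end of Gtf2h3, a TFIIH subunit. The other 5 of the 15 strongest lay at Wipi1 (autophagy), Hbp1 (an HMG-box factor), Vill (villin-like), Klhdc10 (a kelch protein) and Impdh1 (guanine nucleotide synthesis), with single values between 7.64 and 11.1.

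**Figure D2:**
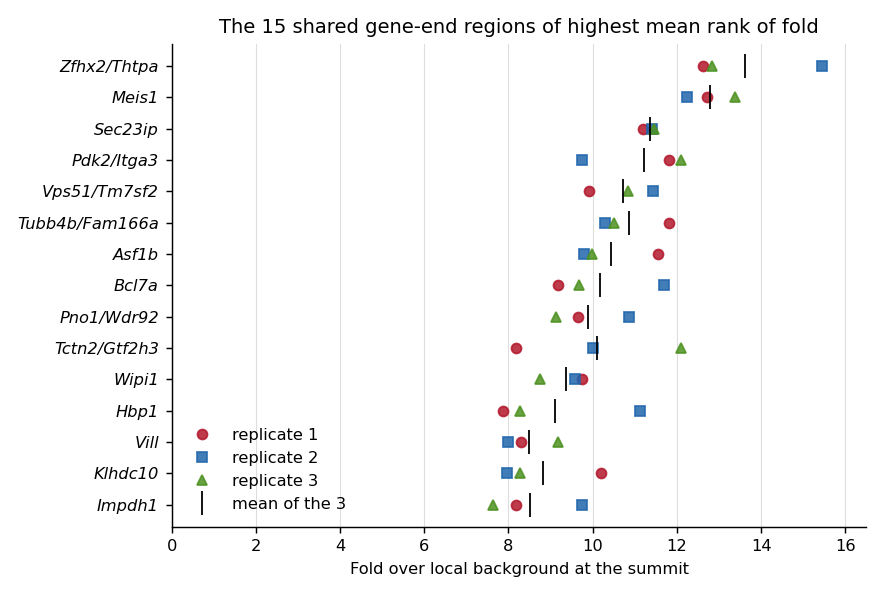
Fold over local background at the summit (x axis) in each replicate (points) and their mean (bar) for the 15 shared gene-end regions of highest mean rank of fold, named by the genes with an end within 3 kb (rows). Single values ran from 7.64 at Impdh1 to 15.4 at Zfhx2/Thtpa, and the 3 values of Sec23ip lie within the range of Pdk2/Itga3.

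The distance to the nearest gene end was short for many members. Its median was 643 bp (quartiles 164 and 1621 bp), and 309 regions (33.3%) had their midpoint within 250 bp. The next intervals held 101 regions (250 to 500 bp), 152 (500 to 1000 bp), 114 (1000 to 1500 bp), 89 (1500 to 2000 bp), 89 (2000 to 2500 bp) and 74 (2500 to 3000 bp). Per 500 bp, the count was highest in the first interval (410) and lowest in the last one before the limit (74). Midpoints were about evenly placed inside the nearest gene (455) and outside it (473). The build in hand holds spans only, so exons, introns and untranslated parts were not told apart.

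Recurrent regions lay closer to gene ends than regions seen in fewer lists. Within 250 bp were 6.06% of the regions in all 3 lists (interval 5.44% to 6.75%), 2.92% of those in exactly 2 lists (2.58% to 3.31%) and 1.63% of those in 1 list (1.51% to 1.77%). Within 3 kb were 18.2%, 12.9% and 10.6%. The windows within 3 kb of a gene end cover 8.03% of the 2631.55 Mb spanned on these chromosomes. Taken list by list, 12.0%, 15.2% and 12.5% of the peaks of replicates 1, 2 and 3 were within 3 kb (13.3% ± 1.71, SD, n = 3). Replicate 2 had the fewest peaks and the highest share. Just beyond the limit, at 3 to 3.5 kb, were 1.14% of the regions in all 3 lists, 1.35% of those in exactly 2 and 1.25% of those in 1 list, so the classes no longer stood apart there.

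**Figure D3:**
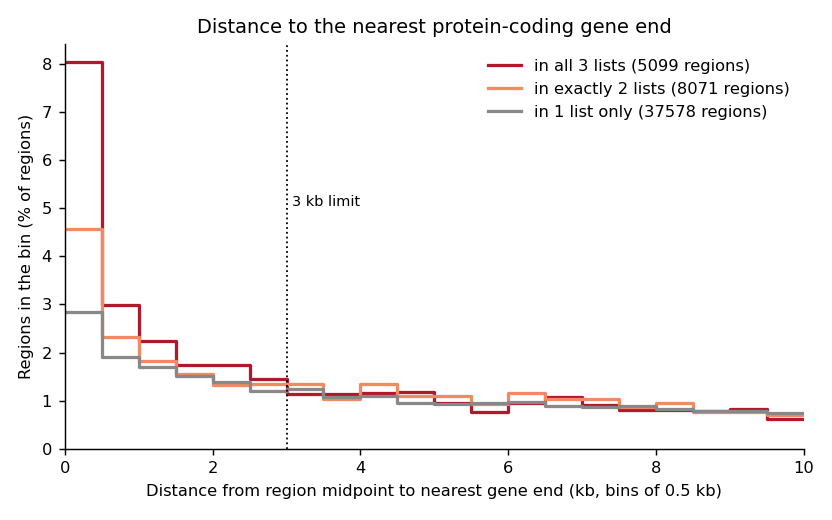
Regions per 0.5 kb of distance from midpoint to nearest gene end (x axis, kb), as a percent of the regions of their class (y axis), for regions in all 3 lists, exactly 2 lists and 1 list only, with the 3 kb limit dotted. The classes stand apart in the first bins (8.04%, 4.57% and 2.85% in the first) and run together past the limit.

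The strand of the nearest gene was known for 737 of the 928 regions (79.4%), from the RefSeq promoter table. That table has no entry for the 18 regions on chromosome 18 and lacks other genes too. Off chromosome 18 the strand was known for 81.0% of 910 regions. Of the 737, 592 (80.3%, 77.3% to 83.0%) were nearest a gene start and 145 (19.7%) were nearest the downstream end. Each gene has 1 of each. At starts, 231 regions (39%) were within 250 bp and the median distance was 479 bp. At downstream ends, 20 (13.8%) were within 250 bp and the median was 1467 bp. The mean summit was a median of 9.83 bp past the start (quartiles 251 bp before and 737 bp past it), with 291 summits before and 301 past it. Around downstream ends the mean summits were spread out, with 64 before and 81 past the end, and the upper quartile was 1736 bp past it. Among regions within 3 kb, the share nearest a start was 80.3% in all 3 lists, 73.1% in exactly 2 lists (624 of 854) and 62.2% in 1 list (1959 of 3148).

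**Figure D4:**
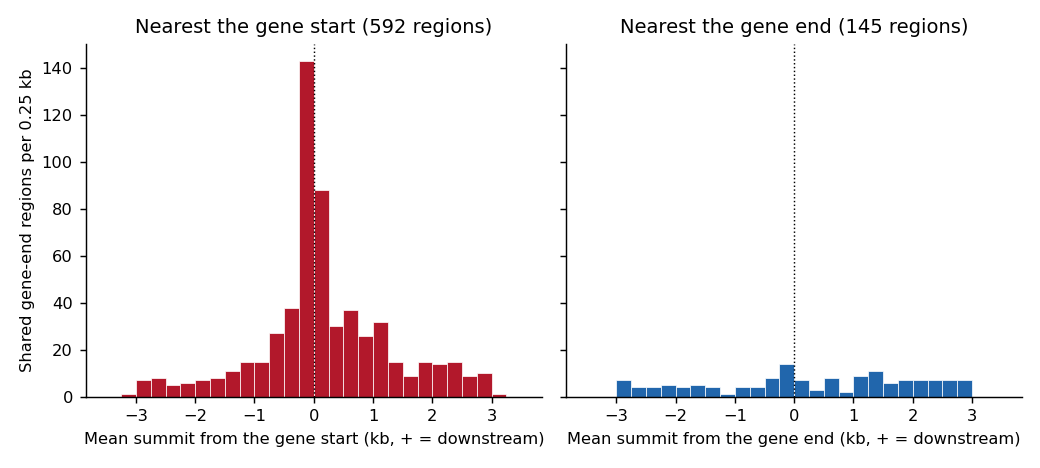
Position of the mean summit of shared gene-end regions (x axis, kb, positive downstream) from a gene start (left, 592 regions) and from a downstream gene end (right, 145 regions), counted per 0.25 kb (y axis). Summits pile up at the start, with a median 9.83 bp past it, and are spread out around downstream ends.

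Single and paired gene ends were then separated. One gene had an end within 3 kb at 710 regions, 2 genes at 202 and 3 genes at 16, so 218 regions (23.5%, 20.9% to 26.3%) were at 2 or more genes. Of all base pairs within 3 kb of a gene end, 13.4% are within reach of 2 or more genes. Among regions within 3 kb, those in exactly 2 lists were at 2 or more genes in 17.3% (181 of 1045) and those in 1 list in 16.1% (638 of 3965). In the 156 paired regions with both strands known, the 2 nearest genes started on opposite strands in 87 (55.8%), an arrangement in which one stretch can serve as promoter for both. The starts were then a median of 241 bp apart, and at most 1 kb apart in 69. A start and a downstream end of genes on the same strand made up 49 regions (median separation 1202 bp), 2 ends facing each other 10, a start and an end on opposite strands 8, and 2 starts on the same strand 2. The strand of 1 or both genes was unknown for 62. Shares of these arrangements among all gene pairs were not counted, so the 55.8% has no background beside it.

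Paired starts on opposite strands joined genes of several kinds. The region between Supt7l, a subunit of a histone acetyltransferase complex, and Slc4a1ap (chr5:31526508-31526994) had folds of 7.31, 9.54 and 7.70, with the midpoint 11.5 and 30.5 bp from the starts. The one between Ap4m1, an adaptor complex subunit, and Mcm7, a subunit of the replicative helicase (chr5:138171779-138172166), had 6.88, 6.34 and 7.05 and lay 49.0 and 139 bp from the starts. Slc25a40, a mitochondrial carrier, and Dbf4, which activates the Cdc7 kinase at replication origins, had 5.80, 6.76 and 6.14 (chr5:8423287-8423653). That midpoint was not between the starts but inside Slc25a40, 739.5 bp from its start and 744.5 bp from that of Dbf4. Each of these pairs kept above 5-fold in every replicate. At Snx29, a sorting nexin, the fold was 6.66, 10.6 and 9.23 (chr16:11322553-11322985), 92.5 bp before its start and 2694.5 bp past the end of Tnfrsf17, so here a start and an end met on the same strand. Median folds averaged 4.34 ± 0.180 at 2 or more genes and 4.32 ± 0.117 at 1 gene (SD, n = 3 replicates). The median was higher at 2 or more genes in replicates 1 and 2 and lower in replicate 3.

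The genes were next read against 48 lists of families and functions, beside the 5.21% of all protein-coding genes that had a shared gene-end region. In 31 lists the share was above that of all genes and in 17 below it. For several lists on either side, the interval reached 5.21%. Among those above it were chromosome segregation and mitosis (5.15% to 18.5%), chaperones (4.91% to 17.7%) and the Hippo list (2.32% to 25.8%). Most lists at the top were of genes that nearly all cells use, and receptors of the sense organs were near the bottom. Genes that share a region are not independent, and some lists built from symbol patterns take in a few genes that only share a name, such as Slc4a1ap among solute carriers.

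Aminoacyl-tRNA synthetases, which charge tRNAs with amino acids, had the highest share, 10 of 37 (27%, 15.4% to 43.0%). Yars had 4.69, 7.56 and 3.79, Pars2 4.83, 4.73 and 3.82, and Nars2 4.84, 4.18 and 3.50. Of these, Yars stood highest in replicate 2 and Nars2 in replicate 1, so their order varied by replicate. Of the list's genes with a known strand, 6 were hit at the start and none at the downstream end. Splicing factors and hnRNPs had 16 of 84 (19%), among them Hnrnpa1 (5.75, 4.83 and 5.13) and Snrpd2 (4.84, 5.29 and 4.46). The region of highest mean rank in the list (4.83, 7.79 and 7.41) was 2526.5 bp past the end of Prpf31 and nearer to another gene, 235.5 bp from the start of Cnot3. Translation factors had 8 of 69 (11.6%), cytosolic ribosomal proteins 9 of 85 (10.6%) and mitochondrial ribosomal proteins 8 of 78 (10.3%). Rplp1, a protein of the ribosomal stalk, had the highest mean rank of fold among these, with 6.66, 8.63 and 7.96, 67.0 bp from one end (chr9:61914393-61914762).

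Histone genes, which lie in tight clusters, had 20 of 101 (19.8%), but only 10 regions stood behind them. H4c8 had a region 782.5 bp before its start with 6.66, 6.4 and 8.28 (chr13:23529991-23530533). One region on chromosome 3 (chr3:96219566-96219915) had 4.14, 4.67 and 4.84 and reached the ends of H2ac21, H2ac20 and H2bc21 at once. Histone genes thus shared regions more than genes of the other lists named here. DNA replication genes had 9 of 52 (17.3%) at 9 regions, some of which also lay at genes outside the list. Beside Mcm7 and Dbf4, Gins3, of the helicase complex, had 6.36, 5.57 and 6.69, 72.0 bp before its start, and Rpa1, which coats single-stranded DNA, had 4.84, 5.01 and 5.73. Those named here held above 4.8-fold throughout, and Cdc45, Mcm4, Mcm6, Orc3 and Rpa3 completed the list. Chromatin regulators had 14 of 92 (15.2%), led by Kdm8, a JmjC-domain gene (7.27, 7.79 and 8.28, 15 bp inside its start), then Smarca2 (6.44, 5.07 and 5.41), Kmt2a (4.84, 5.29 and 7.01) and Kdm6a (4.29, 5.01 and 6.37).

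Chromosome segregation and mitosis genes had 8 of 80 (10.0%). Cenpl, a kinetochore gene, had 8.59, 7.0 and 8.83, 44.5 bp inside its start. Sgo2a, a protector of centromeric cohesion, had 6.36, 5.01 and 5.41, Kntc1 had 6.17, 4.35 and 4.57, and Ska2 had 6.98, 4.66 and 4.04. Anapc4, Aurka, Mis12 and Spc24 were the others. None of the chromosomal passenger genes had a shared gene-end region. The shared region nearest to an end was 8.95 kb away for Incenp, 7.98 kb for Aurkb, 33.3 kb for Birc5 and 79.1 kb for Cdca8, and it was 19.4 kb away for Onecut3 itself. All of these are outside the 3 kb limit, and regions in fewer than 3 lists are not counted in this.

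**Figure D5:**
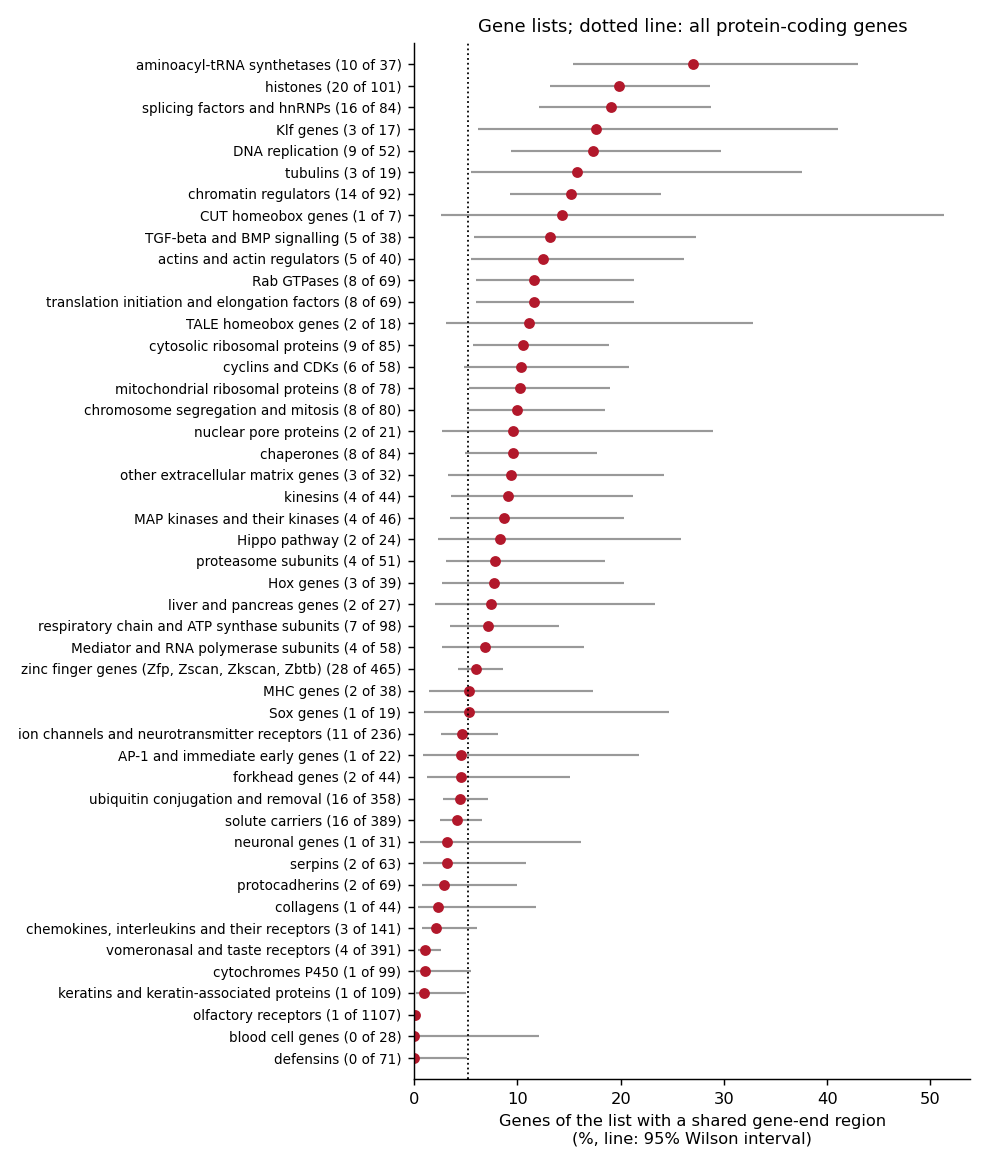
Share of the genes of each list (rows, with counts) that have a shared gene-end region (x axis, %), with 95% Wilson intervals (lines) and the share of all protein-coding genes (dotted, 5.21%); 1 list is not drawn. Aminoacyl-tRNA synthetases (27%), histones (19.8%) and splicing factors (19%) are at the top, and olfactory receptors (0.0903%) are near the bottom.

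Of cytoskeleton and trafficking genes, tubulins had 3 of 19 (15.8%), with Tubb2b at 3.87, 5.69 and 4.73 and Tubb2a at 4.15, 4.44 and 3.86, both well under Tubb4b. Actins and actin regulators had 5 of 40 (12.5%), among them Myl12a, a myosin light chain (4.84, 5.57 and 6.69), and Myh9, a nonmuscle myosin (5.45, 5.57 and 5.39). Rab GTPases had 8 of 69 (11.6%). Rab11a, of recycling endosomes, had the highest mean rank of fold among them, with 9.99, 6.96 and 9.55 (chr9:64738005-64738437), 464.5 bp before its start. Chaperones had 8 of 84 (9.52%), with Hsp90ab1 at 6.96, 7.24 and 8.60 and Hspa5, the chaperone of the endoplasmic reticulum, at 6.06, 5.29 and 5.41, 25 bp before its start. Extracellular matrix genes other than collagens had 3 of 32 (9.38%), of which Loxl2, a lysyl oxidase, had 8.18, 8.35 and 6.37. The region at Loxl2 lay 1492.5 bp outside that gene and nearer to another, 22.5 bp from an end of R3hcc1. Collagens had 1 of 44 (2.27%), Col3a1, with 4.84, 3.90 and 3.42.

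Among signalling and transcription factor genes, the TGF-beta and BMP list had 5 of 38 (13.2%). Smad1, a BMP effector, had 4.83, 6.96 and 4.27, 120.5 bp before its start, and the receptor Acvr1 had 2.80, 7.51 and 6.37, so 1 replicate stood well below the others. Acvr2a, Tgfb3 and Tgfbr3 were the remaining members. Among CUT homeobox genes, the family of Onecut3, 1 of 7 was hit: Cux1, with 7.06, 5.15 and 5.67 at the stronger of 2 regions near its start (chr5:136566771-136567357). Of TALE homeobox genes, Meis1 and Pknox1 were hit (2 of 18). Klf genes had 3 of 17 (17.6%) with folds between 2.53 and 4.56 in single replicates. Liver and pancreas genes had 2 of 27 (7.41%), Foxa2, a forkhead factor (4.31, 4.83 and 4.37), and Sox9 (5.10, 7.24 and 5.70). AP-1 and immediate early genes had 1 of 22, Ier2 (5.37, 5.80 and 5.13). The Hippo list had 2 of 24, both weak: Stk4 (2.42, 4.18 and 3.18) and Ankrd1 (3.44, 2.21 and 2.66). A q-value of at most 0.05 was reached in replicate 2 only at Stk4 and in replicate 1 only at Ankrd1.

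At the lower end, olfactory receptors had 1 of 1107 (0.0903%), Olfr1271, and vomeronasal and taste receptors had 4 of 391 (1.02%). Keratins had 1 of 109 (0.917%), cytochromes P450 1 of 99 (1.01%), and chemokines and interleukins 3 of 141 (2.13%), Ccl2 among them with 5.33, 4.90 and 5.92. Defensins had 0 of 71 and blood cell genes 0 of 28, for which the upper Wilson limits are 5.13% and 12.1%. Taking 3 genes as the most that a count of 0 allows gives 4.23% for defensins and 10.7% for blood cell genes. Other large lists were nearer the share of all genes, where zinc finger genes had 28 of 465 (6.02%), ubiquitin conjugation 16 of 358 (4.47%) and solute carriers 16 of 389 (4.11%).

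Most genes had a single region: 1091 had 1, 34 had 2 and 1 had 3. The last was Foxp1, a forkhead repressor, with 2 regions inside its start (5.63, 3.62 and 5.70 at chr6:99521913-99522329, and 4.53, 3.70 and 3.22 at chr6:99519959-99520452) and 1 inside its downstream end (6.36, 4.46 and 4.46). Meis1 had a second region 769 bp inside its start (6.36, 4.73 and 4.78). Creb3l2, a membrane-bound bZIP factor, had 2 close regions at its start (7.87, 6.96 and 9.23, and 6.82, 6.26 and 6.55). Ccn6 had 2 inside it, 2996.5 and 2449.5 bp from its start (7.87, 8.90 and 5.73, and 7.27, 6.96 and 4.78), and Asf1b had a weaker one past its downstream end (4.55, 4.69 and 3.86). Genes with a shared gene-end region were longer, with a median of 21.9 kb against 17.3 kb for all.

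By median fold, shared gene-end regions stood above the other 4171 shared regions in each list, but the highest folds were among the others. These reached 22.7, 18.9 and 20.7 in replicates 1, 2 and 3, against 12.7, 15.4 and 13.4 at shared gene-end regions. Median folds in replicates 1, 2 and 3 were 4.24, 4.46 and 4.27 in the 928 and 3.94, 4.18 and 3.99 in the other shared regions. The averages of these medians were 4.32 ± 0.117 at shared gene-end regions and 4.03 ± 0.128 at the other shared regions (SD, n = 3 replicates). The SD is a spread between lists and does not measure the error of a difference within a list. Both sets were chosen by a peak in each of these lists, so the gap is a description only. A q-value of at most 0.05 was reached by 80.5%, 89.1% and 84.8% of shared gene-end regions, and by 73.0%, 84.3% and 78.7% of the other shared regions. Folds were lower farther out, where medians averaged 4.56 ± 0.151 within 250 bp, 4.38 ± 0.126 from 250 to 1000 bp and 4.11 ± 0.0799 from 1 to 3 kb. They averaged 4.38 ± 0.0788 at starts and 4.06 ± 0.109 at downstream ends. In replicate 1 the local background was raised over its floor at 66.3% of regions within 250 bp, 60.9% from 250 to 1000 bp and 50.3% from 1 to 3 kb, and at 61.1% at starts and 52.4% at downstream ends. The local background, which could be solved for in replicates 1 and 3, was raised over its floor at 58.5% and 58.0% of shared gene-end regions and at 45.6% and 45.5% of the other shared regions, and its part in recurrence at gene ends was not tested. Median pileups in replicates 1 and 3 were 15 and 14 fragments at shared gene-end regions, against 14 and 13 at the other shared regions. Median widths were 380 bp at shared gene-end regions and 397 bp at the other shared regions, and the 3 summits lay within a median of 57 bp of each other at shared gene-end regions and 69 bp at the others.

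At the 3 kb limit itself, the last regions inside were at Gm38457 (2999.5 bp, folds 4.84, 4.73 and 8.28), Ccn6 (2996.5 bp, folds 7.87, 8.90 and 5.73) and Tmem150a (2993.5 bp, folds 2.58, 4.06 and 3.50). The first outside were at Baat (3011.5 bp, folds 3.33, 3.07 and 2.87), Cenpt (3017.5 bp, folds 5.28, 3.79 and 6.79) and Vat1l (3028.5 bp, folds 4.56, 3.29 and 3.45). Nothing in their folds set the sides apart.

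By chromosome, the share of protein-coding genes with a shared gene-end region had a median of 5.08% and ran from 1.76% on X to 10.1% on chromosome 19. Chromosome 7 had 2.66% of its genes hit but the highest share of shared regions at gene ends, 35.4% (40 of 113). Without chromosome 19 the median folds still averaged 4.35 ± 0.0952 at gene ends and 4.03 ± 0.128 elsewhere. Of noncoding genes, lncRNA spans overlapped 9.81% of shared gene-end regions (91) and 12.0% of the other shared regions (502), and tRNA genes overlapped 0.431% of shared gene-end regions (4) and 0.216% of the other shared regions (9).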

How the data were processed

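ChIP-Seq peak lists of the 3 Onecut3-OE FLAG replicates were used, grouped by the sample labels. Tools listed in the submitters' processing notes were MACS2 2.1.0, Bowtie2 2.2.6 and deepTools 3.3.2, without roles, and the build was GRCm38. The authors called peaks per sample with MACS. How reads were filtered is not given in the sources used here. Each deposited list gives, per peak, a score and a fold, which is the ratio of pileup to background at the summit. The deposited p-value and q-value of each peak were both on the −log10 scale. A fold depends on depth and local background, so the difference of a fold between lists may be technical, and the SDs over the 3 lists include it.

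Regions, distances and word counts were computed with Python 3.11.15, numpy 2.4.6, pandas 2.3.3 and scipy 1.17.1. Gene spans, strands and promoters came from RefSeq tables of GRCm38.p6. Pileup and background were solved from fold and p within 0.001, which worked for 100.0% of peaks in replicates 1 and 3 and 0.179% in replicate 2. The floor of the background was 2.30 and 2.14 fragments, and 1.01 times it counted as raised. The functions were tested on simulated data.

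The members and lists were chosen with earlier results of these data known. Named genes were those at the 15 strongest regions, at the 8 strongest paired ones, at the 3 regions on either side of the limit, up to 4 per list, the 5 with most regions, 8 printed promoters, and 5 genes of interest to the study. Genes named outside this rule were chosen after their values were seen. An allele that all samples share, 1 gene list and 1 gene are not reported here. Alternatives were other thresholds, overlaps, windows, replicates and gene sets.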

Additional observations from a re-analysis of the deposited data

How the results depend on the processing

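The share at gene ends grew as peaks were held to stricter limits. Requiring −log10 q of at least 5 left 145 regions (30.5% of shared regions, 27.6% at 2 or more genes, median distance 305 bp, 0.846% of genes, median fold averaging 6.58). Fold of at least 5 left 138 (30.5%, 26.8%, 441 bp, 0.804% and 6.66). A q-value of at most 0.05 left 615 (21.2%, 556.5 bp, 3.49% and 4.73). Pairwise overlap of 50% gave 19.3%, 4.37% of genes and 4.45, and summits within 100 bp gave 20.2%, 4.15% and 4.50. A 1 kb window gave 562 regions (11.0%, 18.9%, 218 bp, 3.04% and 4.47) and a 10 kb window 1597 (31.3%, 35.8%, 2172.5 bp and 9.82%), which follows from the window's size.

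Leaving out 1 replicate, with a peak in both remaining lists, gave 1167 to 1430 regions, 15.2% to 17.5% of shared regions, 21.0% to 22.8% at 2 or more genes, distances of 677 to 759 bp, 6.4% to 7.74% of genes and folds of 3.90 to 4.16. The most came without replicate 2. Of 67 values under alternatives, 23 stayed within the counting interval or replicate spread (counts within 1.5 times) and 44 moved. No paired analysis was possible because 1 group only was used. Over all peaks of replicates 1 and 3 the median pileup was 10 fragments, and what depth limits was not tested.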
